A study of Mus musculus with 7 samples.

Results

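The genes described here belong to families of membrane carriers for sugars, amino acids, lactate, creatine, taurine and related small nutrients. They were taken as every gene of the solute carrier families Slc1, Slc2, Slc5, Slc6, Slc7, Slc16, Slc38 and Slc43 in the deposited expression table, matched on the gene symbol, with the cystine carrier Slc7a11 left out by the rule. This gave 62 genes of the 14641 in the table: 6 of Slc1, 11 of Slc2, 3 of Slc5, 8 of Slc6, 8 of Slc7, 14 of Slc16, 9 of Slc38 and 3 of Slc43. Of these genes, 5 are classed as intracellular and 10 as without a settled substrate. No measured value entered the match on the symbol, but the families were chosen, for function, with earlier results of these data known. Poly(A) RNA was sequenced from whole heart lysates of male C57BL/6J mice that carried a full-length mouse Nrf2 transgene (mNrf2-TG, 3 libraries, numbered 17, 18 and 19) and from non-transgenic mice (NTG, 4 libraries, numbered 1 to 4), which the methods describe as littermates. The transgene was driven in cardiomyocytes by the αMHC promoter. The age was 6 months in the labels of the mNrf2-TG libraries, 6 to 7 months in the methods and 7 to 8 months in the series' design text, and the NTG labels give none.

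Many solute carriers of the SLC1, SLC6 and SLC38 families use the sodium gradient to concentrate amino acids, creatine or taurine inside the cell. In the SLC2 family GLUT1 and GLUT4 let glucose run down its gradient. In the SLC16 family MCT1 and MCT4 carry lactate and pyruvate together with a proton. Several SLC7 exchangers reach the surface only when bound to a heavy chain, CD98hc, encoded by Slc3a2, and the lactate carriers MCT1 and MCT4 depend in the same way on basigin, encoded by Bsg. In the heart GLUT4 is the insulin-responsive glucose carrier, MCT1 takes up lactate, and creatine and taurine are held at high concentrations by their own carriers. Nrf2 is the transcription factor of the antioxidant response and binds the antioxidant response element in the control regions of its target genes.

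The libraries held 6534684 to 8405857 counts on listed genes, of which the 62 carriers took 0.236% to 0.277% in NTG and 0.249% to 0.265% in mNrf2-TG. Nfe2l2, the gene of Nrf2, had 729 to 1392 counts per NTG library, and every mNrf2-TG library held between 10912 and 12839 (log2FC 3.36, edgeR quasi-likelihood test, adjusted p = 2.96e-06), and so fitted the labels. NTG replicate 3 stood apart: over the 46 carriers with a mean of 10 or more counts it was the highest of the 4 NTG libraries for 22, and its median absolute log2 difference from the other NTG libraries was 0.39, against 0.16 to 0.29 for the others. The calls of cell type markers below stand against 17.2% of all genes tested, 8.48% higher and 8.73% lower. Among markers of other cell types, 4 of 6 fibroblast markers were higher in mNrf2-TG (summed CPM 1016 to 1321 in NTG, 1427 to 1500 in mNrf2-TG). Of macrophage and leukocyte markers 4 of 6 were higher (113 to 139, then 190 to 271). Of 7 cardiomyocyte markers 2 were lower (72406 to 80017, then 61799 to 65678), and of 7 endothelial markers 2 were lower and 1 higher (890 to 973, then 843 to 879). The smooth muscle list, with 1 of 6 markers lower, summed to 529 to 613 in NTG replicates 1, 2 and 4. The sum was 1489 in NTG replicate 3 and 1053 to 1545 in mNrf2-TG. In that list 5 of the 6 log2FC values were negative, and the marker with the 1 positive value, 1.37, was not called. The atrial list summed to 92.9 to 195 in NTG and to 274 to 521 in mNrf2-TG, highest in replicate 17. Of its 4 measured markers only Nppa was called, higher, and the paper treats Nppa as a marker of hypertrophy. The log2FC was positive for 3 of the 4 and negative for 1, at -1.62. The skeletal muscle list, with 3 of 6 markers lower, summed to 1990 to 3564 in NTG, highest in replicate 3, and to 1682 to 1896 in mNrf2-TG. Of 4 adipocyte, 4 red blood cell and 5 neuron and Schwann cell markers measured, edgeR, DESeq2, limma-voom and limma on the deposited log2 values called 0, while 1, 0 and 1 had an unadjusted p under 0.05 with edgeR. Markers that were not among the tested genes could not be measured. This left 4 of 6 listed adipocyte, 4 of 6 red blood cell, 5 of 6 neuron and Schwann cell and 4 of 6 atrial markers. The part of these cell types in the results below was not tested, and in whole tissue fewer cells of a type and less RNA per cell cannot be told apart.

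Of the 62 carriers, 12 passed an adjusted p of 0.05 (edgeR quasi-likelihood test, Benjamini-Hochberg over the 14637 genes tested), and mNrf2-TG hearts had 7 of these at a higher and 5 at a lower level. That was 19.4% of the carriers, against 17.2% of all genes tested, with 8.48% of all genes higher and 8.73% lower, so the share of carriers called was near the background. The higher ones were Slc6a8, Slc1a2, Slc6a6, Slc43a2, Slc2a9, Slc38a10 and Slc2a1, and the lower ones Slc5a1, Slc38a1, Slc38a4, Slc16a7 and Slc7a1. The median log2FC was 0.03 over the carriers and 0.00 over all genes, with 32 carriers positive and 30 negative. At the looser rule of an unadjusted p under 0.05 and a fold above 2 there were 8 carriers, where 5.65% of all genes passed. Normalized counts of the groups did not overlap for 16 carriers, 8 in each direction, where 29.7% of all genes did not overlap. All 62 carriers passed the filter of a summed count above 1, but 16 had a mean under 10 counts per library. These 16 had a median standard error of 1.01 on the log2 scale, against 0.20 for the other 46. Of those 46, 11 were called (23.9%), against 20.1% of all genes with a mean of 10 or more counts. Of the 50 carriers not called, 26 had a 95% interval of the log2FC that stayed within 1 of 0, and 24 had one that reached beyond it, so a change of 2-fold could not be detected or set aside for those at this depth.

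**Figure D1:**
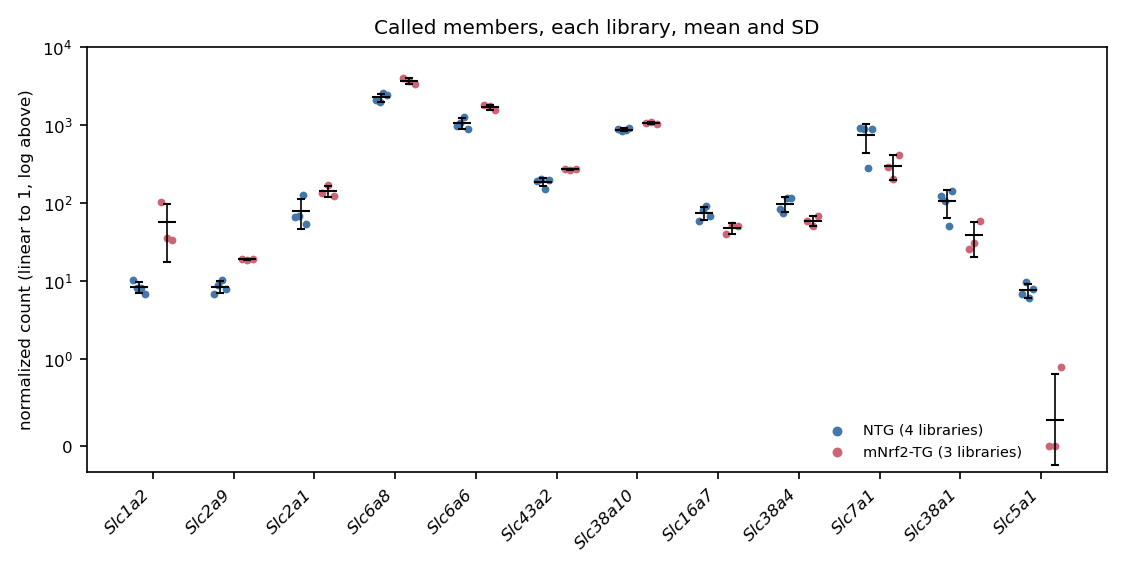
Normalized counts (y axis, linear up to 1 and logarithmic above) of the 12 carriers called between the groups, ordered on the x axis from the highest to the lowest log2 fold change, with 1 point per library and the mean and SD in black. The single NTG point that lies among the mNrf2-TG points for Slc7a1, Slc38a1 and Slc2a1 is replicate 3 in each, and Slc1a2 has 1 mNrf2-TG library at 103 beside others at 35.5 and 33.6.

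Leaving out 1 library at a time gave 5 to 14 called carriers. The count was 14 without NTG replicate 3, with Slc16a7 lost and Slc2a8, Slc5a3 and Slc6a17 gained, and the carriers that did not overlap then rose in number from 16 to 26, while over all genes their share went from 29.7% to 38.6%. It was 7 without NTG replicate 2, 6 without mNrf2-TG replicate 17 and 5 without mNrf2-TG replicate 18. The share of all genes called moved in the same direction in these fits, from 17.2% to 20.2% without NTG replicate 3, and to 10.9%, 9.39% and 10.2% without the other 3. Slc6a8, Slc1a2, Slc6a6, Slc43a2 and Slc5a1 were called in every leave-one-out fit and in each other alternative that tested them. The remaining 7 lost their call in at least 3 alternatives each, as given below beside their values.

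Levels of different carriers were compared per length, as RPKM, in which reads are scaled by the TMM-corrected size of the library and by the merged exon length of the gene. The GLUT4 gene Slc2a4 had the highest level in NTG hearts, 147 ± 15.6 RPKM (SD, n = 4), or 29.8% of the summed level of the 62 carriers. The MCT1 gene Slc16a1 followed at 86.8 ± 2.82 RPKM, then the creatine carrier Slc6a8 at 57.6 ± 6.89 and the glutamine and alanine carrier Slc38a2 at 50.5 ± 13.8, whose libraries overlapped those of Slc6a8. These 4 carriers held 69.3% of the summed level in NTG and 68.2% in mNrf2-TG. After them came Slc43a3 at 30.4 RPKM, which overlapped none of the libraries of the next, and Slc38a3, Slc38a10 and Slc6a6 between 18.4 and 16.6, neighbours whose libraries overlapped. In all, 8 carriers reached 10 RPKM in NTG and 36 stayed under 1 RPKM. In mNrf2-TG hearts Slc6a8 moved from rank 3 to rank 2 with 93.9 ± 9.14 RPKM (n = 3), Slc6a6 from rank 8 to rank 5, Slc2a1 from 18 to 10, and Slc7a1 from 9 to 16. The summed level of all carriers was 493 ± 44.4 RPKM in NTG and 494 ± 15.1 in mNrf2-TG. By family, the Slc6 sum was 75.8 ± 8.72 in NTG and 122 ± 11.2 in mNrf2-TG, the Slc16 sum was 102 ± 3.33 and 91.0 ± 3.86, and the Slc7 sum was 16.3 ± 3.34 and 11.97 ± 1.10, given as a description with no test.

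**Figure D2:**
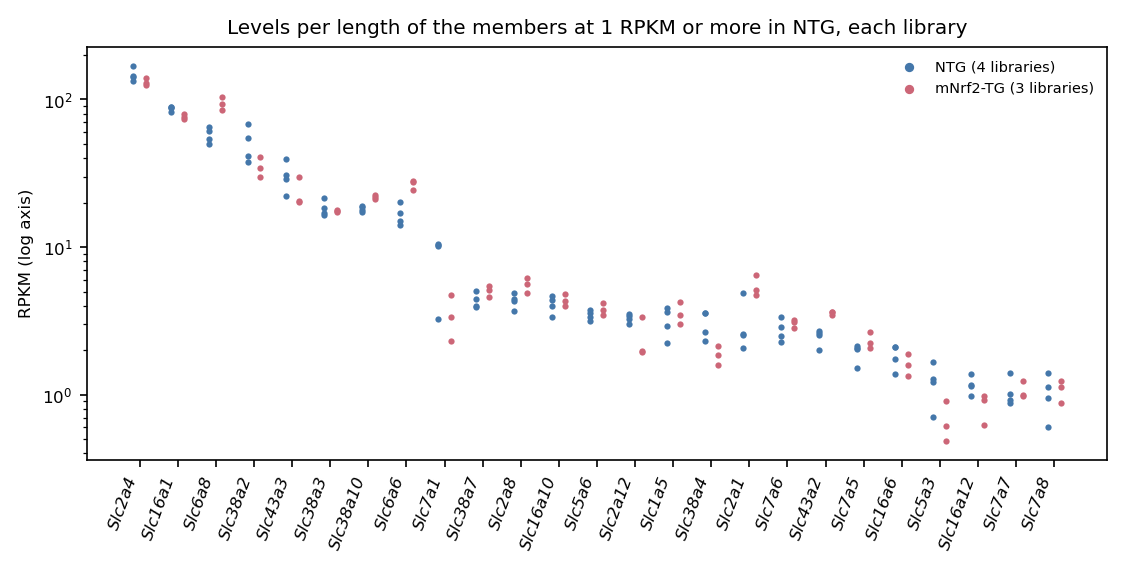
Level per length (RPKM, logarithmic y axis) of 25 carriers at 1 RPKM or more in NTG hearts, ordered on the x axis by their NTG mean, with 1 point per library. Slc2a4, Slc16a1, Slc6a8 and Slc38a2 lead in both groups, and the mNrf2-TG points of Slc6a8, Slc6a6 and Slc38a10 all lie above their NTG points.

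Promoters were read from the RefSeq table (GRCm38.p6, 250 bases before to 50 after a start site), which held 66 promoters of 46 of the carriers, including 8 of the 12 called (not Slc6a8, Slc6a6, Slc38a1 or Slc16a7). The core of the antioxidant response element, TGACNNNGC on either strand, was found in 12.4% of all 32851 promoters, in 14.05% of those of tested genes and in 10 of the 66 carrier promoters (15.2%), which belonged to 8 genes. Among the 12 promoters of called carriers it was found in 1, that of Slc7a1, which was lower in mNrf2-TG. The core of the C/EBP-ATF response element, through which amino acid shortage acts on transport genes, is TGATGNAA on either strand. It was found in 3.97% of all promoters and in 2.42% of those of tested genes. Among the 66 carrier promoters 3 held it (4.55%, of Slc1a4 and Slc7a7), and 0 of the 12. The 4 promoters below are shown because Slc7a1 was the called carrier with a match, Slc16a1 and Slc38a2 are the abundant carriers with one, and Slc2a1 was higher in mNrf2-TG with none in this window. Capitals mark the bases that match TGACNNNGC, on the printed strand for Slc38a2 and on the other strand for Slc7a1 and Slc16a1.
Slc7a1 promoter (chr5:148399855-148400154, minus strand): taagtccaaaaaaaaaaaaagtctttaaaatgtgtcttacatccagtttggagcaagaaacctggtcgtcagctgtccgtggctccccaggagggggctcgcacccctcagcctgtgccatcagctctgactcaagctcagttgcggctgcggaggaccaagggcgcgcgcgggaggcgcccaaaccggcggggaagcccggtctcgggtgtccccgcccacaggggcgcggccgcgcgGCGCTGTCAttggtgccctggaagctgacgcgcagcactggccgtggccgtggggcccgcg
Slc16a1 promoter (chr3:104638414-104638713, plus strand): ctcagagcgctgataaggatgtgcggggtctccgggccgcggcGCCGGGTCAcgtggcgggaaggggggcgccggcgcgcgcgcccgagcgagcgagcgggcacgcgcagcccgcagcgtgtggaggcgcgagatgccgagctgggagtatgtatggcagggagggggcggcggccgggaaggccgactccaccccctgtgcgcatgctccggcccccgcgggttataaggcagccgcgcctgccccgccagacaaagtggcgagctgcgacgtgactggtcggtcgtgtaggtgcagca
Slc38a2 promoter (chr15:96699679-96699978, minus strand): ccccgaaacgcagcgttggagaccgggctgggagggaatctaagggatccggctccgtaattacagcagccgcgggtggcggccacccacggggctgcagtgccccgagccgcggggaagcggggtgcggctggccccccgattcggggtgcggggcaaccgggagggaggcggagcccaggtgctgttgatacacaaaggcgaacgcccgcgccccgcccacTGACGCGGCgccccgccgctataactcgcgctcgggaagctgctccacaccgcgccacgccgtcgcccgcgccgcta
Slc2a1 promoter (chr4:119108495-119108794, plus strand): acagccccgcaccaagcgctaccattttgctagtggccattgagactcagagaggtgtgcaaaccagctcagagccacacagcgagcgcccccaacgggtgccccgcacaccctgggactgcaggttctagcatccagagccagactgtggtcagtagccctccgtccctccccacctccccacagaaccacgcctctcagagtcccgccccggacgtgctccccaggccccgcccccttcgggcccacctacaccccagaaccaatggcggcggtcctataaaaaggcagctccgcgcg
A match is a description of the letters and not evidence of binding, and a window without one says nothing of the factor.

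Among the sugar carriers, 3 of 11 were called, 2 higher and 1 lower. Slc2a1 (GLUT1, basal glucose uptake; chromosome 4, 119108711 to 119137983, plus strand, GRCm38) had normalized counts of 66.7, 68.4, 129 and 54.8 in NTG replicates 1 to 4 and of 136, 169 and 125 in mNrf2-TG replicates 17, 18 and 19. Only NTG replicate 3 reached into the mNrf2-TG range, above the lowest mNrf2-TG library. The difference was a log2FC of 0.85 ± 0.26 (SE; adjusted p = 0.0471, edgeR quasi-likelihood test). Without NTG replicate 3 it was 1.18 with an adjusted p of 0.00081, and leaving out any other single library ended the call, with adjusted p values from 0.0725 to 0.151. Slc2a4 (GLUT4) had 3725, 3476, 4431 and 3752 normalized counts in NTG and 3285, 3387 and 3633 in mNrf2-TG, and the groups overlapped. Its log2FC was -0.16, with a 95% interval of -0.36 to 0.03 that leaves out a fall of 2-fold (adjusted p = 0.234). The log2 ratio of Slc2a1 to Slc2a4 per length was -5.68 ± 0.42 in NTG and -4.60 ± 0.27 in mNrf2-TG. The difference of 1.08 had an exact two-sided permutation p of 0.0571 over the 35 ways to divide the libraries into 4 and 3, where 0.0286 is the smallest possible, and 0.171 after adjustment over the 3 ratios tested. NTG replicate 3 had the ratio nearest to the mNrf2-TG libraries, -5.11, and no NTG library reached them.

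Slc2a9 (GLUT9, a urate carrier; chromosome 5, 38349273 to 38503143, minus strand) had 6.90, 9.0, 10.3 and 7.97 normalized counts in NTG and 19.4, 18.7 and 19.1 in mNrf2-TG, without overlap (log2FC 1.14 ± 0.27, adjusted p = 0.0184). Its call ended in the DESeq2 test (adjusted p = 0.0635) and without NTG replicate 1 or any single mNrf2-TG library (0.0507 to 0.0575). Slc5a1 (SGLT1, sodium-coupled glucose uptake; chromosome 5, 33104219 to 33162870, plus strand) had 6, 11, 6 and 8 raw counts in NTG and 0, 0 and 1 in mNrf2-TG. The groups did not overlap (adjusted p = 0.00609). From the summed counts, 31 in NTG and 1 in mNrf2-TG, the depth-corrected ratio was 23.9, with an exact 95% interval of 3.98 to 973 that covers counting error only, so a few reads decide how large the fall was. Neither filter that asks for more counts keeps this gene.

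The other sugar carriers were not called. Slc2a8 (GLUT8, held in intracellular vesicles) had 108, 103, 118 and 89.6 normalized counts in NTG and 118, 135 and 150 in mNrf2-TG, which did not overlap (log2FC 0.36, adjusted p = 0.0812), and was called without NTG replicate 3 (0.0481). Slc2a12 (GLUT12, also insulin-responsive) had 95.4, 109, 104 and 112 in NTG and 107, 63.1 and 61.7 in mNrf2-TG (log2FC -0.46, adjusted p = 0.130). Here mNrf2-TG replicate 17 lay among the NTG libraries and the other mNrf2-TG libraries lay below them all, and the gene was called lower without replicate 17 (log2FC -0.75, adjusted p = 0.0170). Slc2a5, a fructose carrier, had 0, 2, 2 and 4 raw counts in NTG and 0 in each mNrf2-TG library, too few for a fold.

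Among the 5 monocarboxylate carriers all log2FC values were negative and 1 passed the test. Slc16a7 (MCT2, a high-affinity pyruvate and lactate carrier; chromosome 10, 125219270 to 125389465, minus strand) had 59.8, 81.9, 91.8 and 67.7 normalized counts in NTG and 39.8, 52.2 and 51.7 in mNrf2-TG, without overlap (log2FC -0.65 ± 0.19, edgeR adjusted p = 0.0397). The call ended without NTG replicate 2 or 3 or any single mNrf2-TG library (adjusted p 0.0612 to 0.136). Slc16a1 (MCT1, lactate, pyruvate and ketone bodies; chromosome 3, 104638668 to 104658462, plus strand), whose promoter is printed above, had 2907, 2754, 2953 and 2950 in NTG and 2660, 2542 and 2452 in mNrf2-TG. All mNrf2-TG libraries lay below all NTG libraries, but the difference was small, with a log2FC of -0.18, a 95% interval of -0.32 to -0.04 and an adjusted p of 0.0781. Slc16a3 (MCT4, the lactate exporter of glycolytic cells) had 17.2, 22.5, 9.28 and 25.9 in NTG and 16.1, 19.7 and 18.2 in mNrf2-TG, inside the NTG range (log2FC -0.06, 95% interval -0.81 to 0.68, adjusted p = 0.920). The log2 ratio of Slc16a3 to Slc16a1 per length was -7.63 ± 0.68 in NTG and -7.42 ± 0.19 in mNrf2-TG, a difference of 0.22 (exact permutation p = 0.8, adjusted 0.8), which turned to -0.10 without NTG replicate 3. Slc16a6 and Slc16a8 had log2FC values of -0.21 and -0.68 with adjusted p values of 0.497 and 0.279.

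The neutral amino acid carriers were the largest group, and 3 of 14 were called, 1 higher and 2 lower. Slc43a2 (LAT4, branched-chain amino acids; chromosome 11, 75531694 to 75577575, plus strand) had 193, 203, 153 and 198 normalized counts in NTG and 275, 263 and 274 in mNrf2-TG. The mNrf2-TG libraries lay close together and above every NTG library (log2FC 0.53 ± 0.11, edgeR adjusted p = 0.00940). Slc38a1 (SNAT1, sodium-coupled glutamine and alanine uptake; chromosome 15, 96571418 to 96642913, minus strand) had 123, 105, 50.5 and 145 in NTG and 25.8, 30.5 and 59.9 in mNrf2-TG (log2FC -1.43 ± 0.37, adjusted p = 0.0273). NTG replicate 3 fell below mNrf2-TG replicate 19, so the groups overlapped, and without that NTG library the adjusted p was 0.00207. The call ended with limma-voom (0.0522) and without NTG replicate 1, 2 or 4 or mNrf2-TG replicate 17 or 18 (0.0616 to 0.103). Slc38a4 (SNAT4, which also carries cationic amino acids; chromosome 15, 96994820 to 97055956, minus strand) had 85.0, 74.7, 115 and 115 in NTG and 59.2, 51.2 and 69.0 in mNrf2-TG. The groups did not overlap (log2FC -0.70 ± 0.19, adjusted p = 0.0332), and the call ended without NTG replicate 4 or mNrf2-TG replicate 17 or 18 (0.0734 to 0.112).

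Slc38a2 (SNAT2, the adaptive neutral amino acid carrier), the most abundant of this group per length, had 2511, 2747, 4519 and 3646 normalized counts in NTG and 2720, 2288 and 2000 in mNrf2-TG. NTG replicate 3 was the highest, the groups overlapped, and the log2FC of -0.52 had an adjusted p of 0.0880 with edgeR and 0.0385 with DESeq2. Slc7a5 (LAT1, exchange of large neutral amino acids) had 59.8, 57.6, 42.3 and 56.8 in NTG and 62.4, 73.9 and 58.1 in mNrf2-TG (log2FC 0.26, 95% interval -0.12 to 0.63, adjusted p = 0.322). Slc7a8 (LAT2) had 35.6, 42.3, 52.6 and 22.9 in NTG and 33.4, 46.3 and 42.7 in mNrf2-TG, with the mNrf2-TG libraries inside the NTG range (log2FC 0.09, adjusted p = 0.852). Their log2 ratio per length was 0.98 ± 0.68 in NTG and 1.11 ± 0.23 in mNrf2-TG (difference 0.13, exact permutation p = 0.8, adjusted 0.8), and the difference was -0.16 without NTG replicate 3. Slc1a5 (ASCT2, glutamine exchange) spanned 70.7 to 121 in NTG and 94.4 to 133 in mNrf2-TG (log2FC 0.17, adjusted p = 0.582). Slc43a1 (LAT3) spanned 8.10 to 23.7 and 8.17 to 21.7 (log2FC -0.01, adjusted p = 0.991). The interval of Slc43a1, -1.08 to 1.06, was too wide to exclude a 2-fold change in either direction, whereas that of Slc1a5, -0.26 to 0.60, was not.

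Slc1a4 (ASCT1, alanine, serine and cysteine exchange), singled out after its values were seen, had 16.1, 18.0, 25.8 and 28.9 in NTG and 102, 31.5 and 24.5 in mNrf2-TG (log2FC 1.22, adjusted p = 0.105). The high value was replicate 17, the library that was also highest for the glutamate carrier Slc1a2 and for the sum of the atrial marker list. Only Nppa was called in that list, and the part of these markers was not tested.

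Among the 4 acidic amino acid carriers 1 was called and it had the largest increase of all carriers that passed the test. Slc1a2 (GLT-1, known as the glial glutamate carrier; chromosome 2, 102658659 to 102790784, plus strand) had 10.3, 8.10, 8.25 and 6.97 normalized counts in NTG and 103, 35.5 and 33.6 in mNrf2-TG. Each mNrf2-TG library lay above every NTG library, with replicate 17 far above the others. The fitted fold was 6.71 (log2FC 2.75 ± 0.45, edgeR adjusted p = 0.00412), and without mNrf2-TG replicate 17 the log2FC was 2.03 with an adjusted p of 0.00487. Its level per length stayed low, 0.0851 ± 0.0142 RPKM in NTG and 0.581 ± 0.402 in mNrf2-TG. Slc1a3 (GLAST) had 4.60, 10.8, 17.5 and 12.9 in NTG and 16.1, 15.8 and 13.6 in mNrf2-TG, which overlapped (log2FC 0.38, adjusted p = 0.528). No neuron and Schwann cell marker was called, and their summed level was 23.9 to 29.7 CPM in NTG and 20.8 to 31.0 in mNrf2-TG.

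Among the 4 cationic amino acid carriers Slc7a1 was called, lower in mNrf2-TG. Slc7a1 (CAT1, the widespread arginine and lysine carrier; chromosome 5, 148327410 to 148399904, minus strand) had 909, 879, 284 and 894 normalized counts in NTG and 292, 202 and 414 in mNrf2-TG. NTG replicates 1, 2 and 4 lay at more than 2 times the highest mNrf2-TG library, while NTG replicate 3 lay below mNrf2-TG replicates 17 and 19. With all libraries the log2FC was -1.29 ± 0.37 and the adjusted p 0.0408 (edgeR). Without NTG replicate 3 it was -1.56 with an adjusted p of 0.000542, and without NTG replicate 1, 2 or 4 or mNrf2-TG replicate 17 or 18 the call ended (0.0854 to 0.132), as it did with DESeq2 (0.0551), limma-voom (0.0778) and limma on the deposited log2 values (0.0608). Slc7a1 was the carrier of its family with the highest level per length in NTG, 8.54 ± 3.52 RPKM, and the level was 3.49 ± 1.23 in mNrf2-TG. Slc7a2 (CAT2) had 25.3, 31.5, 75.3 and 33.9 in NTG and 39.8, 36.5 and 45.4 in mNrf2-TG (log2FC -0.03, adjusted p = 0.963). Its direction is not settled, since NTG replicate 3 was the highest library and the log2FC was 0.42 without it, 0.10 with limma-voom and 0.01 with scaling by the library total. Slc7a6 and Slc7a7, the exchangers of cationic and neutral amino acids, had log2FC values of 0.15 and 0.03 and adjusted p values of 0.532 and 0.949.

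The main carriers of creatine and of taurine were both higher in mNrf2-TG hearts. Slc6a8 (CRT, the creatine carrier; chromosome X, 73673150 to 73682502, plus strand) had 2107, 1966, 2553 and 2412 normalized counts in NTG and 4053, 3658 and 3338 in mNrf2-TG. All mNrf2-TG libraries lay above all NTG libraries, by a fitted fold of 1.63 (log2FC 0.70 ± 0.10, edgeR adjusted p = 0.00217). Across the leave-one-out fits the log2FC was 0.63 to 0.78 and the adjusted p at most 0.0145. Slc6a6 (TauT, the taurine carrier; chromosome 6, 91684053 to 91759066, plus strand) had 962, 1078, 1288 and 904 in NTG and 1790, 1751 and 1554 in mNrf2-TG, again without overlap (fitted fold 1.60, log2FC 0.68 ± 0.12, adjusted p = 0.00470). Its leave-one-out log2FC was 0.62 to 0.79, with an adjusted p of at most 0.0258. As a share of the summed level per length of all carriers, Slc6a8 was 11.7% in NTG and 19.01% in mNrf2-TG, and Slc6a6 was 3.37% and 5.40%.

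The other carriers linked to creatine were not called. Slc16a12 (MCT12, a creatine carrier) had 36.8, 43.2, 30.9 and 35.8 normalized counts in NTG and 29.0, 19.7 and 30.9 in mNrf2-TG (log2FC -0.47, adjusted p = 0.180). Slc16a9 (MCT9, linked to carnitine and creatine efflux) had 18.4, 23.4, 20.6 and 34.8 in NTG and 44.1, 31.5 and 36.3 in mNrf2-TG (log2FC 0.61, adjusted p = 0.131). Both intervals ran close to 0 on one side, -0.97 to 0.03 and 0.04 to 1.17. Of the other osmolyte carriers, Slc5a3 (SMIT1, myo-inositol uptake) had 137, 104, 57.7 and 99.6 in NTG and 50.6, 74.9 and 39.9 in mNrf2-TG. NTG replicate 3 lay inside the mNrf2-TG range, the log2FC was -0.85 ± 0.29 and the adjusted p 0.0710 with edgeR, 0.0386 with DESeq2 and 0.00904 without that library. Slc6a12 (BGT1, betaine and GABA) had 2, 1, 4 and 1 raw counts in NTG and 0 in each mNrf2-TG library, too few for a fold.

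**Figure D3:**
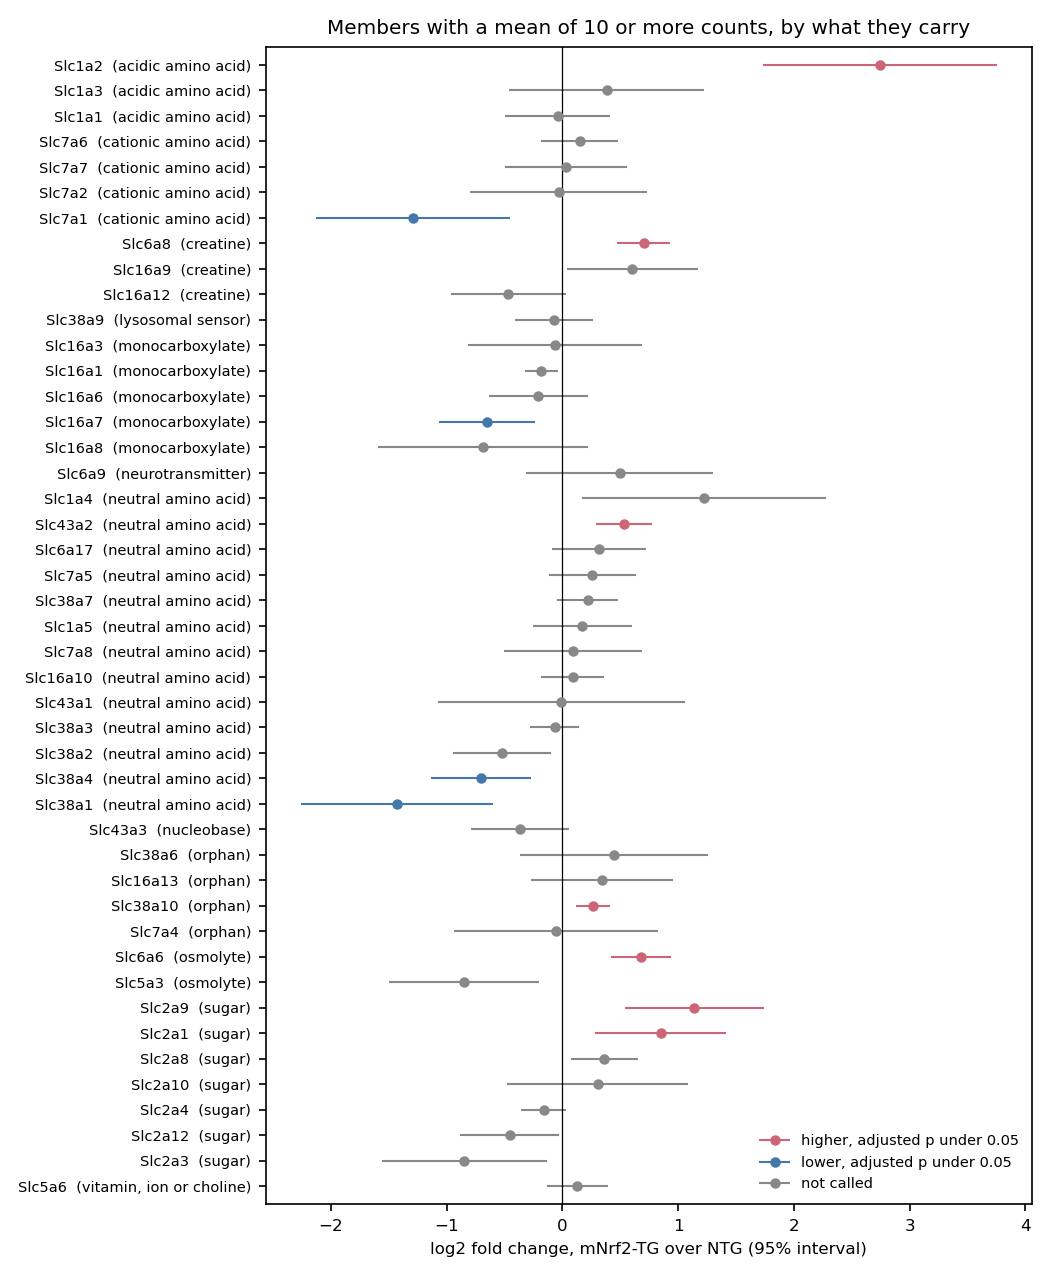
Log2 fold change of mNrf2-TG over NTG (x axis) with its 95% interval for 45 of the 46 carriers with a mean of 10 or more counts per library, grouped on the y axis by what they carry. Red marks those higher and blue those lower at an adjusted p under 0.05, with calls in both directions among the neutral amino acid carriers and the widest intervals at Slc43a1, Slc1a4 and Slc1a2.

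Slc38a10, a widely expressed carrier with no settled role (chromosome 11, 120103960 to 120151346, minus strand), was the only one called of 10 without a settled substrate. It had 898, 836, 858 and 913 normalized counts in NTG and 1053, 1089 and 1025 in mNrf2-TG, a small difference that no library crossed (log2FC 0.27 ± 0.07, edgeR adjusted p = 0.0211). The call ended without NTG replicate 2 or mNrf2-TG replicate 17 or 18 (adjusted p 0.0570 to 0.0740). Slc38a9, the lysosomal arginine sensor that signals to mTORC1, had 125, 124, 92.8 and 146 in NTG and 112, 127 and 110 in mNrf2-TG (log2FC -0.07, adjusted p = 0.788), and its interval of -0.41 to 0.27 excludes a change of 2-fold. Slc6a9 (GLYT1, glycine) had 20.7, 7.20, 20.6 and 10.95 in NTG and 18.3, 22.7 and 20.9 in mNrf2-TG, which overlapped (log2FC 0.50, adjusted p = 0.381). Slc43a3 (ENBT1, purine nucleobases) spanned 749 to 1323 in NTG and 684 to 1001 in mNrf2-TG (log2FC -0.37, adjusted p = 0.212), and Slc5a6 (SMVT, biotin and pantothenate) spanned 95.6 to 113 and 104 to 126 (log2FC 0.13, adjusted p = 0.487).

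Exon overlap and shared sequence touch some of these counts. The libraries were stranded, but whether the counting used strand is not given in the sources used here. Of the called carriers, Slc2a1, Slc1a2, Slc6a6, Slc43a2, Slc16a7 and Slc38a10 share 1.38% to 9.18% of their merged exons with a gene on the opposite strand that is not in the count table, the most for Slc43a2 with 922 bases. Overlaps with a counted gene on the opposite strand were found for carriers that were not called. The largest were 31.9% of Slc1a1 with 4430402I18Rik, 27.8% of Slc6a9 with Ccdc24, 21.5% of Slc16a6 with Amz2 and 13.3% of Slc7a4 with P2rx6. After them came 9.92% of Slc5a6 with Atraid, 9.61% of Slc2a12 with Tbpl1 and 7.0% of Slc7a7 with Oxa1l. Slc16a9 shares 12.7% with Gm7097, which is not counted. The counts of these carriers are uncertain to that extent. Slc5a3 shares 159 bases with Mrps6 on the same strand. Of stretches of 50 bases, the read length, 22.8% were shared with other genes in Slc38a6, 13.6% in Slc5a6 and 4.11% in Slc38a1, so reads of these carriers may be split with other genes.

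The genes that fold, place or serve the carriers were described next, from lists of 88 symbols of which 85 were tested. In these lists 19 were called, 4 higher and 15 lower (22.4%, against 17.2% of all genes). Of 6 heavy chains and ancillary subunits, 2 were lower (33.3%, where 8.73% of all genes were lower). Slc3a2, which encodes the heavy chain CD98hc of the SLC7 exchangers, had 486, 508, 488 and 481 normalized counts in NTG and 208, 267 and 281 in mNrf2-TG. The NTG libraries, replicate 3 included, lay within a narrow range and far above all mNrf2-TG libraries (log2FC -0.96 ± 0.10, edgeR adjusted p = 0.000473). Bsg, the subunit of MCT1 and MCT4, had 8964, 9118, 9682 and 9713 in NTG and 6954, 7546 and 6799 in mNrf2-TG (log2FC -0.40, adjusted p = 0.00397). Among the 62 carriers, which leave out Slc7a11, the partner light chains of Slc3a2 were Slc7a5, Slc7a8, Slc7a6 and Slc7a7. These light chains and the Bsg partners Slc16a1 and Slc16a3 were not called, as given above.

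Of 18 genes of GLUT4 traffic and insulin signalling, 5 were called (27.8%, against 17.2% of all genes). All 5 were lower, where 8.73% of all genes were lower. Over the 18 genes 7 log2FC values were positive and 11 negative, with a median of -0.08. Irs1, the insulin receptor substrate, spanned 389 to 634 normalized counts across NTG and 264 to 325 across mNrf2-TG (log2FC -0.79, edgeR adjusted p = 0.0154). Pik3r1, the regulatory subunit of PI3-kinase, spanned 2011 to 2999 and 1402 to 1754 (log2FC -0.75, adjusted p = 0.00640). Akt2, the kinase that releases GLUT4 vesicles, had a log2FC of -0.32, Vamp2, a vesicle SNARE, -0.40, and Rab10, a GTPase of those vesicles, -0.24, with adjusted p values of 0.0163, 0.00857 and 0.0419. The call of Rab10 held in the full set of libraries and without NTG replicate 3, and ended without any other single library (adjusted p 0.0644 to 0.151) and with scaling by the library total (0.0650). That of Irs1 ended without mNrf2-TG replicate 17 or 19 (0.0606 and 0.0599), and that of Akt2 without replicate 17 or 18 (0.0686 and 0.0639). The groups did not overlap for any of these 5, while the insulin receptor Insr and the Rab-GAP Tbc1d4 had log2FC values of 0.06 and -0.06 and were not called (adjusted p 0.69 and 0.83). Of 9 genes that set surface level, Sgk1, a kinase that holds several carriers at the membrane, was the only one called (11.1%). It had 855 to 1066 in NTG and 397 to 593 in mNrf2-TG (log2FC -1.04, edgeR adjusted p = 0.00158).

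Of 9 transcription factors known to act on carrier genes, 3 were lower (33.3%, where 8.73% of all genes were lower). Mlxipl, the glucose-sensing ChREBP, spanned 177 to 262 normalized counts across NTG and 88.7 to 104 across mNrf2-TG (log2FC -1.13, edgeR adjusted p = 0.00105). Mef2a, which acts on the GLUT4 gene in muscle, had a log2FC of -0.47 (adjusted p = 0.0133), and Ppargc1a, the coactivator PGC-1α, spanned 3296 to 7440 and 1293 to 2946 (log2FC -1.32, adjusted p = 0.0184). The call of Ppargc1a ended without mNrf2-TG replicate 18 or 19 (0.0639 and 0.0583). Atf4, the factor of the amino acid response, and Nfat5, the factor of the osmotic response, each had a log2FC of -0.06 and were not called (adjusted p 0.65 and 0.67).

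Of 28 enzymes that use what is carried, 5 were called (17.9%, near the 17.2% of all genes). The hexokinases parted: Hk1 spanned 1385 to 1903 normalized counts across NTG and 2417 to 3089 across mNrf2-TG (log2FC 0.72, edgeR adjusted p = 0.00681), while Hk2, the insulin-responsive one, was lower (log2FC -0.32, adjusted p = 0.0234). The creatine kinases did so too: Ckb, the brain-type enzyme, spanned 135 to 197 and 275 to 368 (log2FC 1.04, adjusted p = 0.00173), while Ckm, the muscle-type enzyme, was lower (log2FC -0.39, adjusted p = 0.0226). The call of Hk2 ended without NTG replicate 1 or mNrf2-TG replicate 18 or 19 (0.0670 to 0.0879), and that of Ckm without mNrf2-TG replicate 17 or 19 (0.0904 and 0.0615). Nos3, which makes nitric oxide from arginine in endothelium, was lower by a log2FC of -0.46 (edgeR adjusted p = 0.00956). The endothelial markers Pecam1 and Cdh5 were lower too, with log2FC values of -0.47 and -0.37. The call of Cdh5 ended without NTG replicate 2 or mNrf2-TG replicate 17 or 18 (adjusted p of at most 0.0887). The endothelial marker Kdr was called higher, with a log2FC of 0.31 to 0.52 leaving out 1 library. Its call ended with limma-voom, with limma on the deposited log2 values and without NTG replicate 1, 2 or 4 or mNrf2-TG replicate 17 or 18. Of the 7 endothelial markers 3 had a positive and 4 a negative log2FC, with a median of -0.02. The part of endothelial content was not tested. Of 15 genes of lysosomal amino acid sensing and mTORC1, 3 were called, a share near the 17.2% of all genes. Over the 15 genes 9 log2FC values were positive and 6 negative, with a median of 0.04. Mtor (log2FC 0.42, edgeR adjusted p = 0.00900) and Eif4ebp1, a repressor of translation (0.57, 0.00852), were higher. Ddit4, the mTORC1 inhibitor REDD1, was lower, with 492 to 848 in NTG and 95.8 to 225 in mNrf2-TG (log2FC -1.84, adjusted p = 0.00257).

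**Figure D4:**
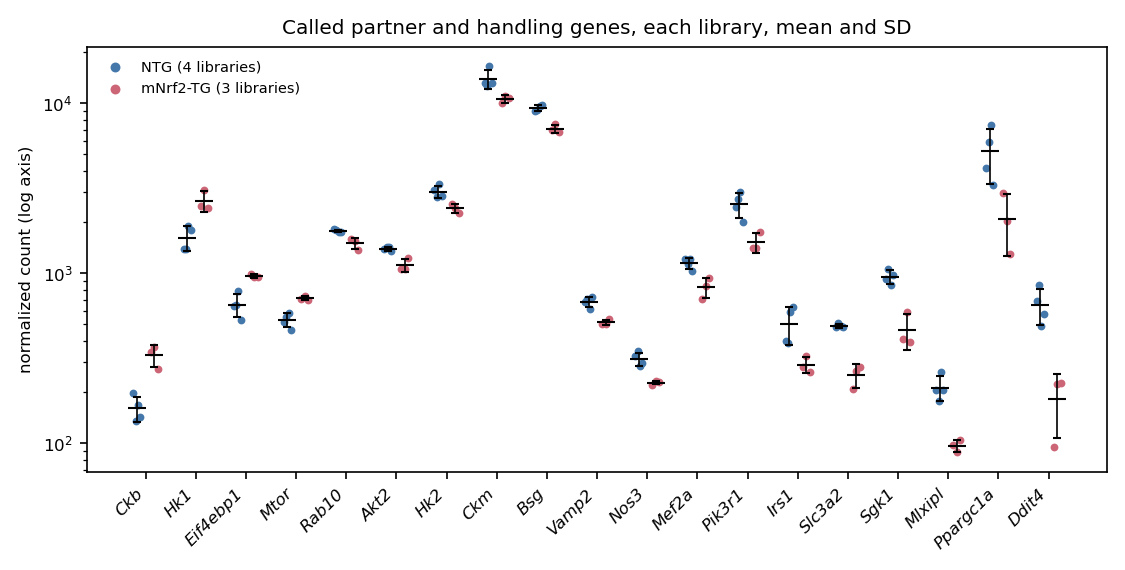
Normalized counts (logarithmic y axis) of the 19 called partner and handling genes, ordered on the x axis from the highest to the lowest log2 fold change, with 1 point per library and the mean and SD in black. Ckb, Hk1, Eif4ebp1 and Mtor were higher in mNrf2-TG and the other 15 lower, and for Slc3a2 the 4 NTG points span 481 to 508.

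**Figure D5:**
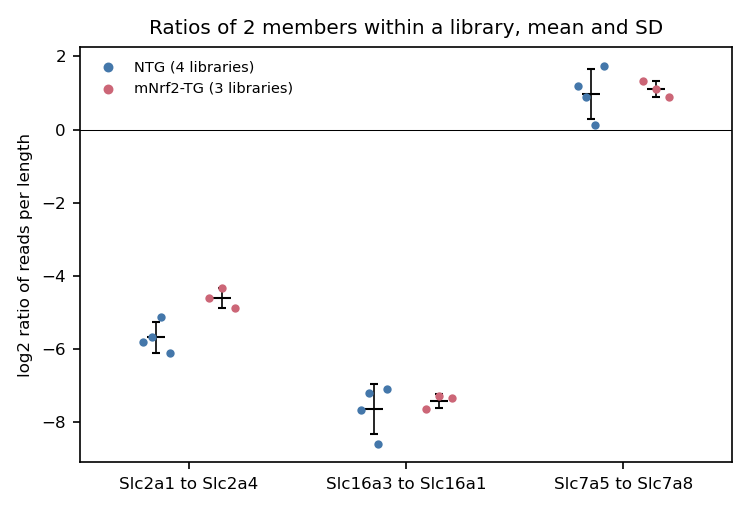
Log2 ratio of reads per length between 2 carriers within each library (y axis) for the pairs named on the x axis, with 1 point per library and the mean and SD in black. The ratio of Slc2a1 to Slc2a4 is higher in every mNrf2-TG library than in any NTG library, while the mNrf2-TG points of the other pairs lie within the NTG range.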

How the data were processed

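The authors sequenced 7 stranded libraries of whole heart RNA, 4 from NTG and 3 from mNrf2-TG mice, as single reads of 50 bases. Reads were aligned with Novoalign 2.08.01 to chromosomes and splice junctions. The submitters' processing notes and the methods name mm10 (GRCm38) and DESeq2 1.32.0, and the methods also name a human build for the alignment index. The mouse build was used here. The deposited table of counts holds whole reads per gene, not normalized. The authors also deposited regularized log2 values, used for 1 alternative, and a mean normalized signal per gene, not used. Columns of their own fold changes and p-values were not used.

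Of 14665 entries, 24 that repeat an Entrez gene were removed, and genes with a summed count above 1 were kept (14637). Groups were compared with edgeR 4.0.16 (TMM, quasi-likelihood test, no covariate) in R 4.3.3, with Benjamini-Hochberg adjustment over all genes tested. Standard errors were obtained from each log2FC and the root of its F statistic. Normalized counts are counts at the mean TMM-corrected library size. RPKM used merged exons of GENCODE M21 (GRCm38). Carriers and other lists were chosen for function, with earlier results of these data known. Named were all called carriers, 22 carriers fixed by function, the highest carrier of each family per length, and called partner and marker genes. DESeq2 1.42.0, limma 3.58.1, other scalings, filters and leaving out each library were the alternatives. The values of 1 carrier are not reported here. The p-values measure the spread between these libraries, since the labels do not say that each came from a separate heart. Intervals from counts cover counting error only.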

Additional observations from a re-analysis of the deposited data

Results flagged for a closer look

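Of 48 sets of 4 NTG values checked for a sample that lies far from the rest, 2 held one, and both were NTG replicate 3. Chance alone would mark about 1 in 20 such sets. For Slc7a1, the arginine and lysine carrier CAT1, NTG replicate 3 had 284 normalized counts, while the other NTG libraries had 879 to 909, and the gap was 0.952 of the whole range. For Ckm, the muscle-type creatine kinase, the same library had 16488, while the others had 12574 to 13231, a gap of 0.832 of the range. Without this library the log2FC of Slc7a1 was -1.56 in place of -1.29. The cause was not tested.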

How the results depend on the processing

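Of 1037 refits of the named genes under the alternatives, 941 kept the direction and the side of the threshold, 75 lost a call, 5 gained one and 16 changed sign. Those that changed sign were all of genes not called: Slc16a3 (0.021 with limma-voom, -0.29 to 0.13 leaving out 1 library), Slc7a8 (-0.089 to 0.28 leaving out 1 library), Slc7a2 (0.10 with limma-voom, 0.0088 with limma on the deposited log2 values, 0.0056 with the library total alone, -0.19 to 0.42 leaving out 1 library), Slc43a1 (0.022 with the library total alone, -0.57 to 0.42 leaving out 1 library) and Slc38a9 (-0.18 to 0.030 leaving out 1 library). Leaving out 1 library gave 5 to 14 called carriers, 4 to 9 higher and 1 to 5 lower, 18 to 26 carriers without overlap (over all genes, 9.39% to 20.2% called and 33.4% to 38.6% without overlap), 16 to 23 called partner genes, and differences of -0.10 to 0.40 for the ratio of Slc16a3 to Slc16a1 and of -0.16 to 0.38 for Slc7a5 to Slc7a8. DESeq2 called 12 carriers, 10 of them shared with edgeR. With limma-voom 3 carriers were called lower in place of 5. The number of carriers past 2-fold with an unadjusted p below 0.05 was 0 on the deposited log2 values, which are shrunken, and 5 under each stricter count filter, which tests fewer genes. The cause of the other shifts was not tested. No paired analysis was possible because the labels give the groups no shared replicate number. With 3 libraries against 4, and 16 carriers under 10 counts, small changes of the rarer carriers were not detectable at this depth.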

Other observations

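Some carriers outside the named set had groups that did not overlap without passing the adjusted threshold, and they were singled out after their values were seen. Over all genes 29.7% did not overlap. Slc2a3 (GLUT3, the high-affinity glucose carrier of neurons) had 12.6, 18.0, 22.7 and 12.9 normalized counts in NTG and 9.68, 8.87 and 9.08 in mNrf2-TG (log2FC -0.85, edgeR adjusted p = 0.0980). Slc1a7 (the glutamate carrier EAAT5) had 12.6, 4.50, 5.16 and 9.96 in NTG and 3.23, 3.94 and 3.63 in mNrf2-TG (log2FC -1.11, adjusted p = 0.162). Both are rare in these hearts, at 0.304 and 0.319 RPKM in NTG. Slc6a19, also without overlap, went the other way. It had 0, 0, 1 and 0 raw counts in NTG and 1, 2 and 2 in mNrf2-TG, too few for a fold. Slc38a3 (SNAT3, a glutamine, histidine and asparagine carrier) had 656 to 858 in NTG and 689 to 709 in mNrf2-TG, with a log2FC of -0.07 and a 95% interval of -0.28 to 0.15.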
